A study of Mus musculus with 82 samples.

Results

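Long H3K27me3 domains are stretches of chromatin that carry trimethylation of lysine 27 of histone H3 over many kilobases. In the deposited table of H3K27me3 domains of hematopoietic stem cells (HSCs, from which all blood lineages arise), a domain was counted as long when its listed size was at least 20000 bp. This gave 8453 long domains of 55820 distinct domains, or 15.1%. The other domains were split into 14872 medium ones, from 5000 bp to under 20000 bp, and 32495 short ones. The members were thus chosen by a measured value, their H3K27me3 domain size in young and old HSCs together, so sizes and H3K27me3 signals are given as a description without any test. RNA and accessibility were not used to choose the domains, and those are the measurements that were tested. The other histone marks entered the chromatin states from which the domains were built, so their levels and changes inside the domains are descriptions as well.

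All HSCs came from wild-type male C57BL/6J mice, young (3 to 4 months, YHSC) or old (24 to 26 months, OHSC), and were sorted as LSK CD34-Flk2-CD150+ cells. The young mice came from The Jackson Laboratory and the old ones from the NIA Aged Rodent Colony. Age and supplier therefore cannot be told apart. RNA was measured in 4 YHSC libraries from pooled mice and 8 OHSC libraries from individual mice, accessibility by ATAC-seq in 4 libraries per age, and H3K27ac in 2 libraries per age. For H3K27me3 and H3K4me3, 2 YHSC libraries each were used. Young common myeloid progenitors (CMP), granulocyte-macrophage progenitors (GMP) and megakaryocyte-erythroid progenitors (MEP) were measured in 2 RNA libraries each. Old HSCs that carried a control shRNA, or shRNA1 or shRNA2 directed at the shorter variant of Btaf1, a gene for a factor that removes TBP from DNA, were measured in 2 RNA libraries per shRNA, both in culture with PVA-based medium and after transplantation into irradiated young female B6.SJL-Ptprca Pepcb/BoyJ recipients, from which GFP+ LSK CD48-CD150+ cells were sorted. These cells were old at the start in the controls as in the knockdowns. The study calls its ChIP-seq replicates biological replicates and gives the n of its ATAC-seq data as mice, and each transplanted library came from pooled recipients. For the progenitor and culture libraries, a statement that ties each to separate animals or cultures was not found, so p-values there measure the spread between libraries, which may be partly technical.

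H3K27me3 is written by the Polycomb repressive complex 2, whose catalytic subunit is Ezh1 or Ezh2. It is bound by canonical Polycomb repressive complex 1 through Cbx proteins, and it is known for covering developmental regulators, such as the Hox genes, in cells that do not use them. Many of the covered promoters are CpG islands, and those that carry the activating mark H3K4me3 at the same place are called bivalent. In blood formation, loss of the mark is known to let lineage genes of the wrong type be transcribed.

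To show what kinds of promoter sit in these domains, the 250 bases before the start of 5 member genes were read from RefSeq on GRCm38.p6, the mm10 build of the files. CG dinucleotides are in capitals. The motif is CG, which reads the same on both strands, and 94.6% of all 27025 RefSeq genes with a promoter entry hold at least 1 in the 300-base window around the start. Hoxa13, a posterior Hox gene inside the domain with the strongest signal, is shown as a CpG-rich promoter with 35 CG (chr6:52260881-52261130, minus strand).

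Hoxa13: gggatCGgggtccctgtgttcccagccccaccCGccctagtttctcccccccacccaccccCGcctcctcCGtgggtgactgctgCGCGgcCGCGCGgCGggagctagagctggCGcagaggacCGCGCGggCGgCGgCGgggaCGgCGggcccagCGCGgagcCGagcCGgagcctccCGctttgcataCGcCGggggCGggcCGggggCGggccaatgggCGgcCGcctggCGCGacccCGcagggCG

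Hoxa10, a posterior Hox gene used by HSCs, is shown with both of its RefSeq starts because they lie on either side of the edge of that same domain. The stretch before start 1 (chr6:52240855-52241104, minus strand) has 7 CG, and start 1 lies 5854 bp inside the domain. The stretch before start 2 (chr6:52234940-52235189, minus strand) has 20 CG, and start 2 lies 61 bp outside it.

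Hoxa10 start 1: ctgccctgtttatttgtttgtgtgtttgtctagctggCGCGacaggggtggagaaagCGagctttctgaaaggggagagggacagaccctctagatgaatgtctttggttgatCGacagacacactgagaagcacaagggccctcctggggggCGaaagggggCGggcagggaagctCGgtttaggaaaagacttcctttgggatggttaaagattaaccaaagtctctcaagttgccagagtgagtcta

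Hoxa10 start 2: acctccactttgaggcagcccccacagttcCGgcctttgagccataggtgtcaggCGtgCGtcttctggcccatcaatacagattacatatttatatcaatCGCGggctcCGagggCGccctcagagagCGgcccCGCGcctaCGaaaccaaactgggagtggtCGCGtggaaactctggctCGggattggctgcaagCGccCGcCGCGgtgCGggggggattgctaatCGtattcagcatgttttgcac

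Bmp4, which encodes a secreted bone morphogenetic protein, is shown as a member whose RNA was higher in old HSCs (chr14:46390670-46390919, minus strand, 11 CG). Mpo, which encodes the myeloperoxidase of granules (chr11:87793534-87793783, plus strand, 2 CG), and Mcpt8, a mast cell and basophil protease gene (chr14:56085198-56085447, minus strand, 0 CG), are shown as CpG-poor promoters of members with high RNA in progenitors.

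Bmp4: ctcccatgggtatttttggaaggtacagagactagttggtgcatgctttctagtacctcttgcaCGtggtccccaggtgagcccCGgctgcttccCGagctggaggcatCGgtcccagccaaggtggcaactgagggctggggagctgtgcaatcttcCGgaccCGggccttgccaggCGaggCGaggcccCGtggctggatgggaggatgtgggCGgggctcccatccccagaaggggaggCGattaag

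Mpo: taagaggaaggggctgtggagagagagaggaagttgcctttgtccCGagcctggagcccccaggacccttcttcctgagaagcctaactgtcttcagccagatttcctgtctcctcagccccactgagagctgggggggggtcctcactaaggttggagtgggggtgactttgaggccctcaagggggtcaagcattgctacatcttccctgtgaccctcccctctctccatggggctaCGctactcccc

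Mcpt8: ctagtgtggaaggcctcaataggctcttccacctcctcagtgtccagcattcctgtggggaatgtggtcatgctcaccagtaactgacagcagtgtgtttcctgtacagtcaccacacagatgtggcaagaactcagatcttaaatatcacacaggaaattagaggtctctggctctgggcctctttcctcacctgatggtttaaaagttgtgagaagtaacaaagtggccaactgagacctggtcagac

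The long domains were few but covered most of the marked genome. They spanned 509.4 Mb, which was 18.7% of the genome and 69.7% of all bases in H3K27me3 domains. Their median size was 38999 bp (quartiles 26999 and 64999 bp), and the longest ran over 1197999 bp. The H3K27me3 signal is the authors' value per domain after libraries were scaled to a fixed number of reads. Its median over the long domains was 0.504 in YHSC replicate 1 and 0.513 in YHSC replicate 2. The median of the library mean was 0.507 in long, 0.384 in medium and 0.360 in short domains. Signals were close between the libraries, with a median difference of 3.91% in long domains against 7.97% in medium and 20.7% in short ones. Across the 8453 domains Pearson's r between the libraries was 0.995, where the points share the 2 libraries and the domain boundaries. By the authors' column on origin, 8320 long domains (98.4%) were called at both ages, 52 in YHSC and 81 in OHSC. At the size limit the signal changed little, since the 349 domains of 20999 bp just inside had a median of 0.423 and the 406 domains of 19999 bp just outside had 0.418. The first of these inside were chr1:14543000-14563999 (0.248 and 0.302 in replicates 1 and 2), chr1:14572000-14592999 (0.282 and 0.303) and chr1:22104000-22124999 (0.422 and 0.476). Outside they were chr1:13019000-13038999 (0.338 and 0.30), chr1:15644000-15663999 (0.410 and 0.414) and chr1:22673000-22692999 (0.369 and 0.393), so the signals of the 2 sets overlap.

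**Figure D1:**
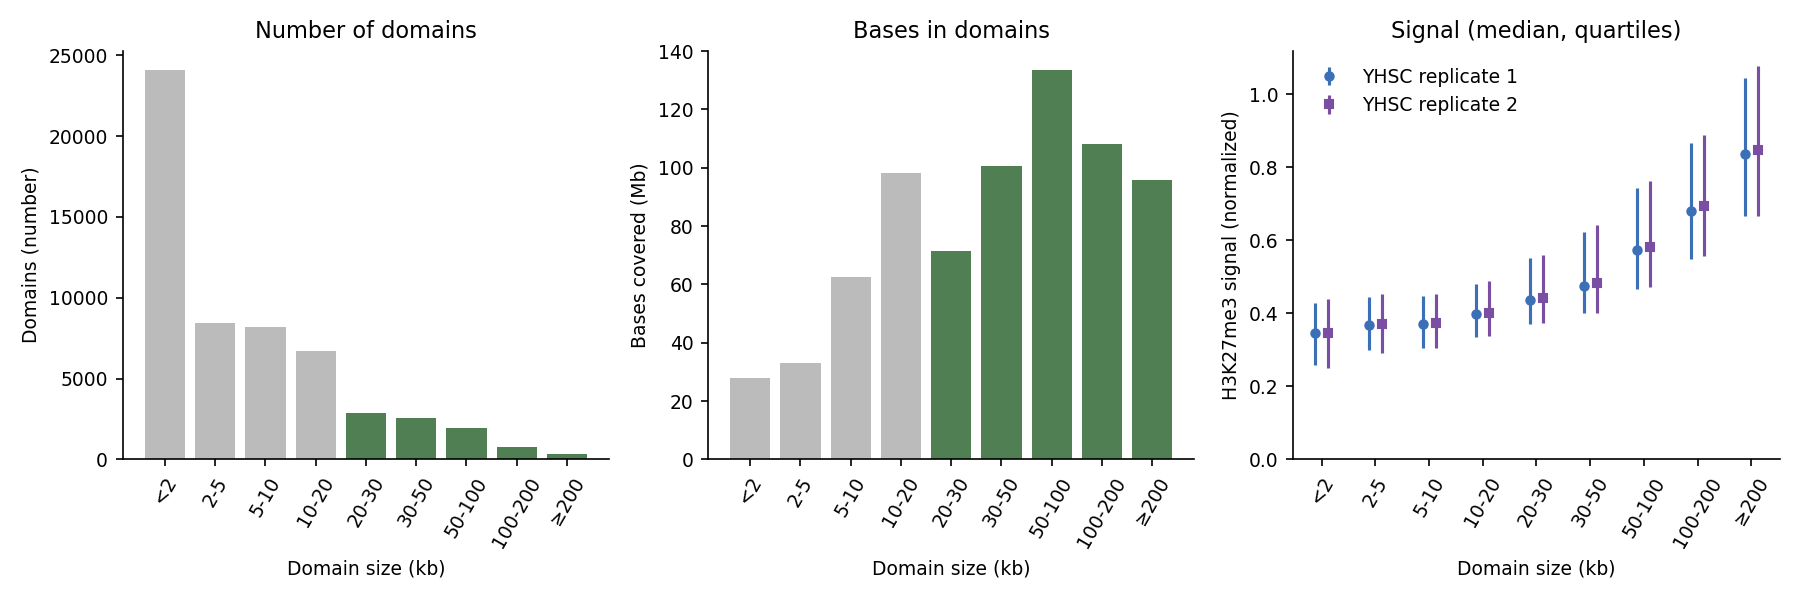
Number of H3K27me3 domains, bases covered (Mb) and H3K27me3 signal (median with quartiles, one mark per YHSC library) by domain size in kb, with long domains in green. The 304 domains of 200 kb or more cover 95.8 Mb, and the median of the mean signal rises from 0.440 at 20 to 30 kb to 0.843 at 200 kb or more.

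Longer domains had a higher signal and fewer coding genes per base. The 2857 domains of 20 to 30 kb held 10.8 coding gene starts per Mb and the 304 domains of 200 kb or more held 4.78 per Mb, with 7.61 per Mb outside all H3K27me3 domains. With long domains split at the quartiles of signal, those of lowest signal held 4.64 coding starts per Mb and 3.56 H3K4me3 peaks per Mb, and those of highest signal held 12.7 and 19.9 per Mb. Between the same groups the observed over expected share of CpG went from 0.173 to 0.215. Taking all long domains, H3K4me3 peaks were about as dense as outside (11.5 against 12.5 per Mb), H3K27ac peaks were sparser (6.77 against 17.3 per Mb), and H3K36me3, the mark of transcribed gene bodies, covered 3.89% of their bases against 26.4% outside. By the authors' annotation, 3502 long domains (41.4%) were close to a transcription start, 3290 (38.9%) were intergenic, 1151 were in gene bodies and 510 at transcript ends. No gene start lay inside 3504 of them (41.5%), and 61.5% held no H3K4me3 peak. Their share of a chromosome ran from 13.0% on chromosome 3 to 29.8% on chromosome 9, while chromosome X had 30 long domains on 0.747% of its length and chromosome Y had 0. The cells were male and carry 1 copy of X and Y, and the part of copy number in these shares was not tested. Low mappability was listed for 144 of the long domains.

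The longest domain, chr9:46390000-47587999, covers Cadm1, a cell adhesion gene, with signals of 0.903 and 0.916. Next in size were chr12:106722000-107555999 around 3110018I06Rik (833999 bp), chr5:128153000-128982999 with Tmem132d, Fzd10, Piwil1 and Rimbp2 (829999 bp), chr2:179107000-179908999 with the cadherin gene Cdh4 (801999 bp) and chr13:57208000-57987999 with Spock1 (779999 bp). The others of the 10 longest held Sox1 (719999 bp), Kirrel3 (704999 bp) and Irs1 (689999 bp), and 2 of them held no coding start, at chr4:123942000-124641999 and chr8:10285000-10979999. The strongest signals belonged to much smaller domains with regulators of development. They were 4.29 and 4.39 over Hoxa10, Hoxa11 and Hoxa13 (chr6:52235000-52278999, 43999 bp), 3.17 and 3.44 over the repressor gene Skor1 (chr9:63133000-63161999), 3.11 and 3.20 over Cbx8, itself a Polycomb subunit gene (chr11:119032000-119077999), 3.07 and 3.12 over Gata3 (chr2:9880000-9906999), and 2.96 and 3.00 over Tbx3 (chr5:119636000-119712999). The observed over expected CpG share of these 5 lay between 0.304 and 0.446, above the value of 0.195 for long domains as a whole. The 5 weakest in YHSC were all listed by origin as called in OHSC alone, and lay between 0.123 and 0.158 in either YHSC library, 3 of them in the immunoglobulin heavy chain region of chromosome 12 (chr12:114147000-114172999, chr12:114089000-114119999 and chr12:114210000-114234999) and 2 on chromosome 8 (chr8:19648000-19669999 and chr8:19389000-19443999). Gene families packed the domains with the most gene starts, which were 39 in a kallikrein domain (chr7:43809000-44143999), 37 and 30 in neighbouring domains of keratin and keratin-associated protein genes (chr11:99236000-99711999 and chr11:99928000-100308999), 34 in a T cell receptor joining segment domain (chr14:54150000-54191999) and 25 in the HoxD domain (chr2:74576000-74824999).

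Library sizes and sample identity were checked next. RNA libraries held 20475764 to 24122404 reads on genes in YHSC, 22175623 to 24654742 in OHSC, 33177394 to 36510850 in progenitors, 37601706 to 42142361 after transplantation and 37292602 to 42737054 in culture, and ATAC-seq libraries held 15427933 to 26260337 reads in regions. HSC markers were present in every HSC library, with summed levels of the 10 markers from 5395 to 5460 counts per 1000000 reads on genes (CPM) in YHSC and from 5012 to 5488 CPM in OHSC. None of these 10 starts in a long domain, and Mecom starts in a medium one. Markers of other cell types moved with age in both directions. The 6 B cell markers, 2 of which (Pax5 and Ebf1) start in long domains, were all lower in OHSC, with sums of 82.3 to 151 CPM in YHSC against 33.2 to 40.9 CPM in OHSC, and Pax5 listed at 0 in at least 1 OHSC library. The 5 erythroid markers summed to 16.9 to 20.7 CPM in YHSC against 27.4 to 183 CPM in OHSC. Of the 6 erythroid and megakaryocyte progenitor markers, Itga2b was higher (94.4 to 114 CPM in YHSC and 207 to 271 CPM in OHSC) and Car1 (118 to 170 CPM against 0.316 to 18.9 CPM), Gata1 and Klf1 were lower, and their sums overlapped (334 to 401 CPM and 333 to 402 CPM). Of the 6 granulocyte and macrophage progenitor markers, Prtn3 was higher (120 to 136 CPM against 290 to 336 CPM) and Mpo lower, with sums of 144 to 170 CPM against 306 to 351 CPM. The call of Mpo rested on YHSC replicate 3, as given below. In the T cell list Trac was called higher, in the stroma and endothelium list Kdr, and no age call was made among the 5 mature myeloid markers. The part of these cell types in the member changes below was not tested. Btaf1 itself, at the gene level where both variants count, was at 160.6 and 165.5 CPM in control against 117.8 to 139.2 CPM in shRNA libraries after transplantation, and at 137 and 141.1 CPM against 110 to 119.2 CPM in culture.

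Most genes inside long domains had little or no RNA in young HSCs. Of the 54402 genes placed once in the annotation, 10957 have their start in a long domain, and 8997 of these (82.1%, 95% exact binomial interval 81.4% to 82.8%, counting error only) were under 1 CPM in all 4 YHSC libraries, which is called silent from here on. Among the 4465 protein-coding genes 2827 (63.3%) were under 1 CPM, compared with 49.3% in medium domains, 47.5% in short domains and 25.6% outside. At the other end, 417 coding genes (9.34%) reached 5 CPM in every YHSC library, against 65.0% outside. The rest of the starts included 1808 processed pseudogenes, 1531 lincRNAs, 707 antisense RNAs and 386 miRNAs. Silent genes were more frequent in larger domains, from 53.6% of coding genes in domains of 20 to 30 kb to 70.1% in those of 200 kb or more. Of the 2994 long domains with a coding start, 1531 (51.1%) held only coding genes under 1 CPM and 396 (13.2%) held a gene of at least 5 CPM. In bulk RNA, a low level in every cell and a high level in few cells cannot be told apart.

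Members with and without H3K4me3 at the start differed in RNA. An H3K4me3 peak within 1000 bp of the start was present at 2275 of the 4465 coding genes (51.0%). Of these, 45.5% were silent and 14.4% reached 5 CPM, whereas of the 2190 without the peak 81.8% were silent and 4.06% reached 5 CPM. Outside H3K27me3 domains, 3.86% of coding genes with a peak were silent, so genes with H3K4me3 in long domains lay between both. Promoters of the 2 kinds also differed in sequence, as Hoxa13 and Mcpt8 above exemplify. RefSeq had a 300-base promoter window for 1642 members with H3K4me3, with a median of 21 CG, and for 1643 without, with a median of 3 CG. At least 10 CG were found in 84.3% of the former, 15.5% of the latter and 61.4% of all coding genes with a window. The split was alike outside H3K27me3 domains, at 87.6% with the peak and 15.6% without, with medians of 22 and 3 CG. Position in the domain differed too. The 417 coding genes of at least 5 CPM started at a median of 6741 bp from the nearest edge, and 41.0% of them lay within 5000 bp of it, against 15725 bp and 15.5% for the 2827 silent genes. The domains of the former were also smaller, with a median of 42999 bp against 64999 bp, and relative to domain size the median distances were 16.3% and 27.2%.

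**Figure D2:**
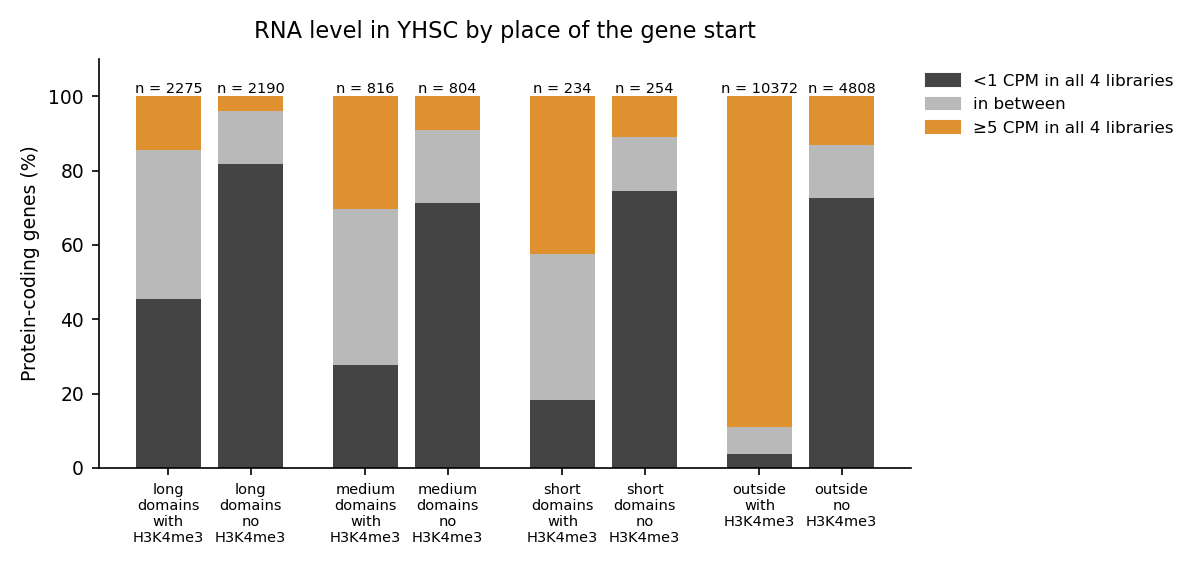
Share of protein-coding genes (%) that were under 1 CPM in all 4 YHSC RNA libraries, at least 5 CPM in all 4, or in between, by domain class of the gene start and by presence of an H3K4me3 peak there, with the number of genes above each bar. Of genes in long domains with H3K4me3, 45.5% are under 1 CPM, against 3.86% of genes outside domains with H3K4me3.

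The start chosen for a gene mattered for those counts. Some genes use several starts, and the count tables give 1 value per gene. For 3037 coding members every RefSeq start lay inside 1 long domain, and 66.9% of these were silent while 195 (6.42%) reached 5 CPM. For 110 coding members no RefSeq start lay inside, and 25 (22.7%) were silent while 67 (60.9%) reached 5 CPM. Gata3, which encodes a zinc finger factor of T cells and HSCs, was a member of the last kind, with the GENCODE start 10034 bp inside its domain and the RefSeq start 1400 bp outside. Its RNA was at 56.5, 48.0, 54.5 and 49.6 CPM in the 4 YHSC libraries, although its domain had the fourth strongest signal.

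The Hox clusters showed the division gene by gene. Hox genes encode homeodomain factors that set position along the body axis, and some HoxA and HoxB genes are used by HSCs. All 9 HoxC and all 9 HoxD genes, Hoxa2, Hoxa10, Hoxa11, Hoxa13 and Hoxb1 start in 5 long domains. Hoxa3 to Hoxa9, Hoxb2 to Hoxb9 and Hoxb13 start outside any H3K27me3 domain. The HoxD domain (248999 bp, signals 2.43 and 2.60) held 31 accessible regions and 19 H3K4me3 peaks, and the HoxC domain (chr15:102724000-103152999, 428999 bp) had signals of 2.69 and 2.78. The Hoxa2 domain (chr6:52099000-52166999) had 1.2 and 1.23, and the Hoxb1 domain (chr11:96352000-96386999) had 0.942 and 1.09.

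Most Hox genes inside the domains had little RNA, and Hoxa10 was the exception. HoxD genes were at mean levels of at most 0.24 CPM in YHSC. Among HoxC genes, Hoxc6 was at 1.21, 1.61, 1.57 and 1.95 CPM, and the others had means of at most 0.353 CPM. Hoxa11 and Hoxa13 did not exceed 0.0921 and 0.046 CPM in any YHSC library. Hoxa2 was at 2.05, 1.47, 2.21 and 1.45 CPM. Hoxb1 had a mean of 0.761 CPM. Hoxa10 was at 46.2, 46.8, 51.0 and 46.6 CPM, inside the domain with the strongest signal. Not all Hox genes outside the domains were transcribed, with means from 0.0330 to 0.982 CPM for Hoxb13, Hoxb8, Hoxa4 and Hoxb7. As CPM divided by gene length in kilobases (RPKM), Hoxa10 was at 14.6 RPKM, between Hoxa9 at 19.9 RPKM and Hoxa7 at 13.2 RPKM outside the domains, whereas Hoxa2 was at 1.01 and Hoxc6 at 0.658 RPKM. Gene-level counts do not tell RNA from start 1 and start 2 of Hoxa10 apart.

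In old HSCs, Hoxa10 ran from 33.3 to 45.2 CPM with a median of 41.5 CPM. The libraries of the 2 ages did not overlap, and the change was -0.20 on the log2 scale (SE 0.068, adjusted p = 0.0354), under the 1.5-fold threshold. Hoxa2, Hoxb1, Hoxc4, Hoxc6 and Hoxc8 were the other Hox members with enough counts for the test, and none was called between ages. In the progenitors Hoxa10 was far below the HSC level, at 3.29 and 2.47 CPM in CMP, 0.958 and 0.301 CPM in GMP and 0.929 and 0.424 CPM in MEP. Progenitor and HSC libraries were made and sequenced apart, so cell type, kit and run cannot be told apart in this contrast and no test was made.

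**Figure D3:**
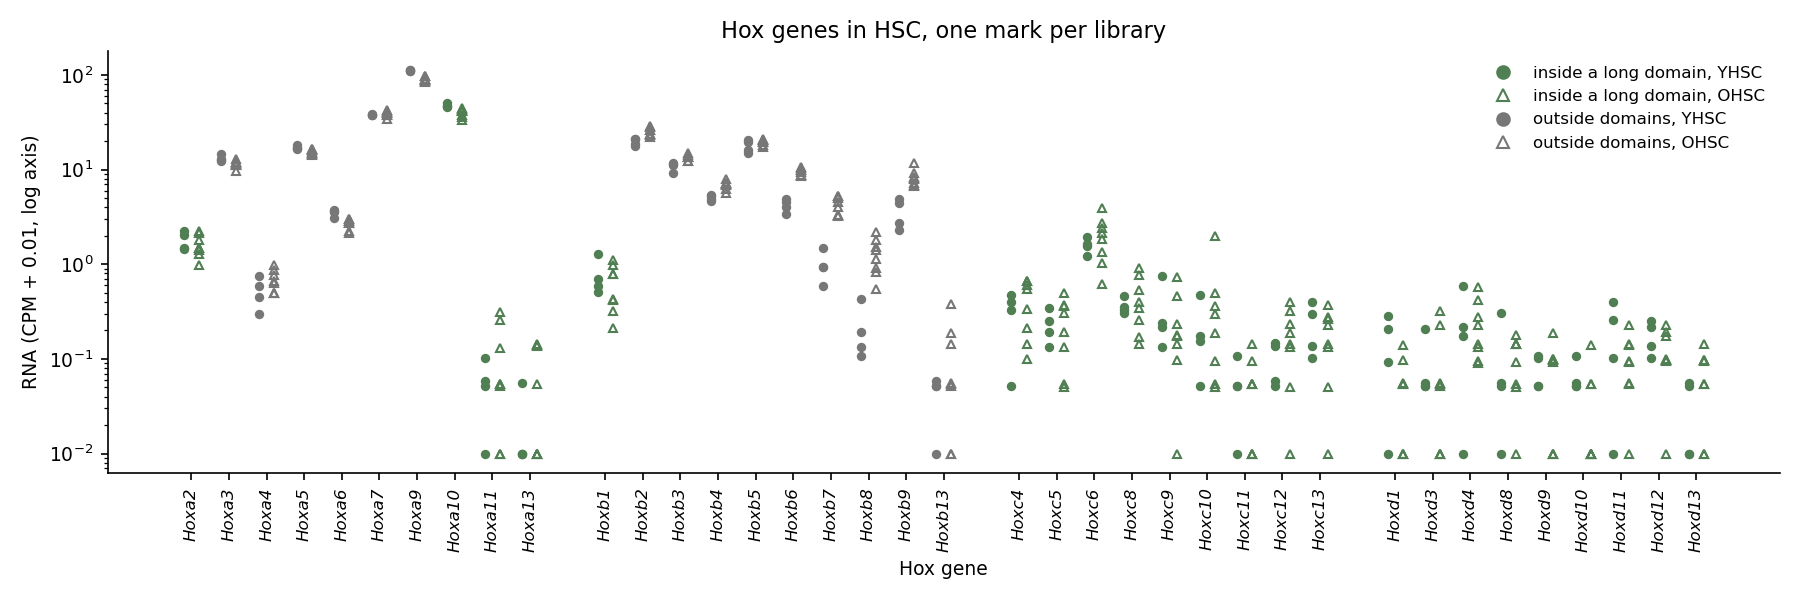
RNA level of Hox cluster genes (CPM + 0.01, log axis), one mark per library, filled circles for YHSC and open triangles for OHSC, green for genes that start in a long domain and grey for genes outside H3K27me3 domains. Hoxa10 stands at 46.2 to 51.0 CPM in YHSC among green genes that stay at or below 2.21 CPM.

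Other families of developmental regulators were counted against a background of 4465 coding genes in long domains of 21753 in all. Of 115 further homeobox genes listed, 93 start in a long domain and 83 of those were silent in YHSC. The counts were 37 of 56 listed tissue-specific bHLH factors (36 silent), 22 of 44 forkhead factors (21 silent), 16 of 19 Wnt ligands (13 silent), 14 of 22 Fgf ligands (8 silent), 17 of 37 ligands and antagonists of the TGF-beta and Bmp family (11 silent), 12 of 17 T-box factors (9 silent), 12 of 20 Sox factors (7 silent) and 7 of 9 Pax factors (3 silent). Of 37 listed blood lineage factors 9 start in a long domain, namely Irf4, Gata3, Pax5, Ebf1, Lef1, Ikzf3, Id2, Id3 and Id4, and 1 of them was silent. Of the same 37, 8 start in shorter H3K27me3 domains and 20 outside. Factors of the myeloid and erythroid lineages on that list, such as Cebpa, Spi1, Gata1 and Klf1, did not start in a long domain, but Klf1 started in a short one.

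RNA from the members was a small share of the total in HSCs. Genes in long domains took 2.20% to 2.39% of reads in YHSC libraries and 2.20% to 2.47% in OHSC libraries. The highest mean levels among members in YHSC were 690 CPM for Gnas, the imprinted gene of the stimulatory G protein alpha subunit, 679 CPM for H2-Q6 and 562 CPM for H2-Q7, nonclassical MHC class I genes, and 430 CPM for Sptbn1, a spectrin gene. Il16, Rpl17, Rassf5, Ptprs, Tacc1 and Grb10 followed, at 267 to 218 CPM. Per length, H2-Q6 was highest of the 10 at 326 RPKM and Ptprs lowest at 15.7 RPKM. H2-Q6 and H2-Q7 are near copies and Rpl17 has many pseudogenes, so how reads were divided there is uncertain. H3K4me3 was strongest at the same H2-Q6 and H2-Q7 starts, with mean signals of 42.5 and 42.1, followed by Zfp518a (29.5). The next peaks, of 26.3 and 25.5, lay 2058 bp from the start of Plxdc1 and 1397 bp from that of Gm12827. Gnas was at 722, 681, 682 and 676 CPM in YHSC and from 585 to 633 CPM in OHSC, a change of -0.15 on the log2 scale that was not called. None of the other 9 was called between ages either.

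Old HSCs differed from young ones at many member genes. A gene was called when edgeR gave an adjusted p below 0.05 and the levels differed by more than 1.5-fold. Over all genes tested, 4.8% were called higher and 2.77% lower in OHSC. Among the 2786 members that passed the filter on low counts, 265 (9.51%) were higher and 150 (5.38%) lower, and of these the libraries of the 2 ages did not overlap for 189 and 112, against 805 of 1032 and 462 of 596 over all genes. The median log2 fold change was -0.067 in members against 0.001 over all genes tested. Medium domains had 155 higher and 79 lower of 1245 tested (12.4% and 6.35%) and short ones 45 and 40 of 405 (11.1% and 9.88%), and outside all domains 558 and 321 of 16854 were called (3.31% and 1.90%). Only members above the filter in at least 1 age could be called, which is 2786 of 10957. By quartile of H3K27me3 signal, from the lowest to the highest, 6 of 216, 18 of 293, 51 of 700 and 190 of 1577 tested members were higher. The lower ones were 29, 30, 36 and 55 in the same order. Coding members with H3K4me3 at the start had 200 higher and 107 lower of 1551, and those without had 32 and 24 of 659. In the 3037 coding genes with every RefSeq start inside, 150 were higher and 82 lower of 1410 tested.

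The 5 members with the largest rise with age and libraries apart were Rcvrn, Tmem215, Ntf3, Kcnb2 and Gabra4. Rcvrn, which encodes recoverin, a calcium sensor of photoreceptors (chr11:67695326-67703333), was at 0.209, 0.147, 0.0921 and 0 CPM in YHSC and from 3.81 to 10.7 CPM (median 7.13) in OHSC. The change was 5.97 on the log2 scale (SE 0.44, adjusted p = 3.8e-08), and all 8 old libraries lay above all 4 young ones. Tmem215, which encodes a transmembrane protein (chr4:40472180-40477168), was at 0.628, 1.61, 1.15 and 1.53 CPM in YHSC and from 15.2 to 46.6 CPM (median 26.7) in OHSC, a log2 change of 4.60 (SE 0.41, adjusted p = 1.04e-05). Ntf3, which encodes the neurotrophin NT-3 (chr6:126101412-126166910), was at 0.0837, 0.0977, 0.0921 and 0.249 CPM in YHSC and from 2.50 to 3.98 CPM (median 2.95) in OHSC (log2 change 4.52, SE 0.30, adjusted p = 5.79e-11). Each of these genes had old libraries that lay entirely above the young ones, which the rule for naming them required.

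Kcnb2, which encodes a voltage-gated potassium channel subunit (chr1:15287254-15723750), was at 0.335, 1.07, 0.737 and 1.04 CPM in YHSC and from 8.73 to 25.1 CPM (median 17.3) in OHSC (log2 change 4.46, SE 0.37, adjusted p = 2.74e-06). Gabra4, a GABA-A receptor subunit gene (chr5:71569749-71658308), was at 0.753, 0.537, 0.506 and 0.663 CPM in YHSC and from 8.60 to 13.7 CPM (median 11.0) in OHSC (log2 change 4.20, SE 0.19, adjusted p = 9.71e-14). Both were listed at 0 in every CMP, GMP and MEP library, as was Ntf3. The domain signals of these 5 genes lay between 0.677 and 0.816 in either YHSC library, and H3K4me3 was present at the start of each except Rcvrn.

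**Figure D4:**
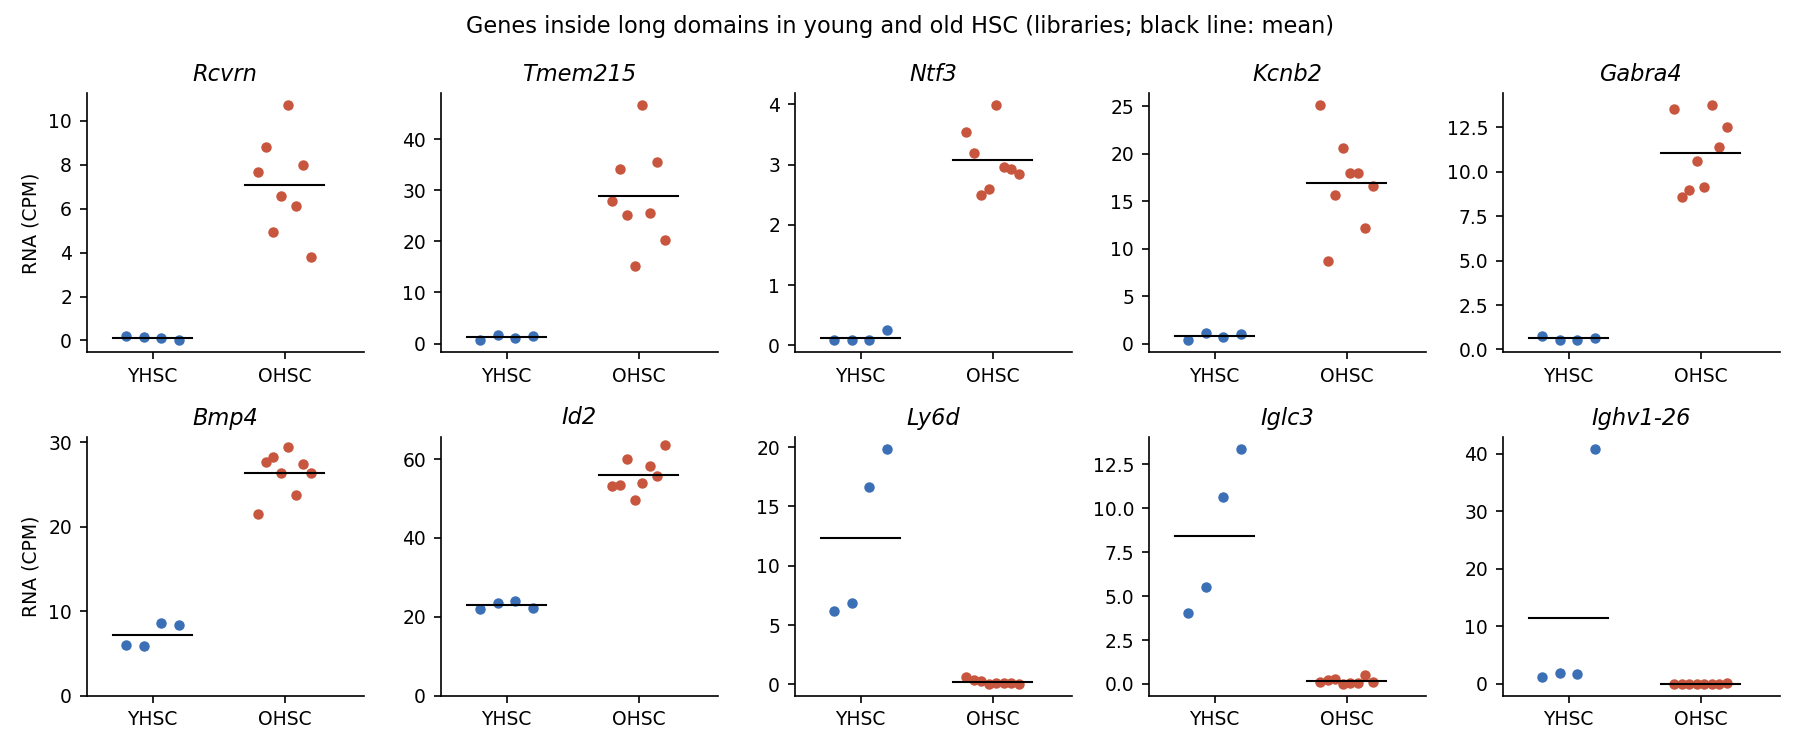
RNA level (CPM) of 10 genes that start in long domains in 4 YHSC (blue) and 8 OHSC (red) libraries, one point per library with the mean as a black line and a separate axis per gene. Old libraries lie above all young ones for Rcvrn, Tmem215, Ntf3, Kcnb2, Gabra4, Bmp4 and Id2 and below all young ones for Ly6d, Iglc3 and Ighv1-26, where 1 young library stands at 40.8 CPM.

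Among the listed families, Bmp4, Id2 and Gbx2 were higher in OHSC. Bmp4, whose promoter is printed above, was at 5.94, 5.86, 8.61 and 8.33 CPM in YHSC and from 21.5 to 29.4 CPM (median 26.9) in OHSC, with a log2 change of 1.92 (SE 0.11, adjusted p = 1.07e-11). Id2, which encodes an inhibitor of bHLH factors, was at 21.9, 23.4, 23.9 and 22.3 CPM in YHSC and from 49.5 to 63.5 CPM (median 54.7) in OHSC (log2 change 1.34, SE 0.067, adjusted p = 4.45e-13). The homeobox gene Gbx2 was at 18.2, 14.8, 17.7 and 16.3 CPM in YHSC and from 23.6 to 31.1 CPM in OHSC (log2 change 0.77, adjusted p = 1.62e-07). For each of the 3 genes no old library fell within the young range. Gata3 was somewhat higher in old HSCs, from 56.7 to 68.3 CPM, with a log2 change of 0.29 (adjusted p = 0.000748) under the 1.5-fold threshold.

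Of 6 Wnt ligands in long domains that could be tested, 2 were higher with age, with a median log2 change of 0.41. Wnt5a was at 0.586, 1.27, 1.52 and 0.871 CPM in YHSC and from 1.83 to 6.49 CPM (median 3.25) in OHSC (log2 change 1.82, adjusted p = 0.000345). Wnt4 rose from 0.209, 0.83, 0.83 and 0.497 CPM to between 0.608 and 4.51 CPM, with overlapping libraries (log2 change 1.82, adjusted p = 0.0132), and its call was lost without YHSC replicate 1 (1.54, adjusted p = 0.0515) or YHSC replicate 4 (1.75, adjusted p = 0.0557). The TGF-beta and Bmp list had 2 higher of 7 tested (median -0.12), Bmp4 and Bmp7. Bmp7 had means of 1.04 and 1.73 CPM in YHSC and OHSC, a log2 change of 0.78 (adjusted p = 0.0221), and was no longer called without YHSC replicate 2 (0.75, adjusted p = 0.0592) or YHSC replicate 3 (0.67, adjusted p = 0.095), or without the filter on low counts (adjusted p = 0.0592).

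Among the further homeobox genes, 27 in long domains could be tested, and 2 were higher, Gbx2 among them, and 1 lower, with a median log2 change of -0.22. The bHLH list had 2 higher and 1 lower of 6 tested (median -0.43). Twist1 had a log2 change of 1.12 (adjusted p = 0.0115), which was lost without YHSC replicate 4 (0.99, adjusted p = 0.0544). Ascl2 had 1.06 (adjusted p = 0.0245), which was lost without YHSC replicate 1, 2 or 3 or OHSC replicate 5 (0.93 to 1.06, adjusted p from 0.0519 to 0.0896), or without the filter on low counts (adjusted p = 0.0661). Mesp2 had -0.73 (adjusted p = 0.0332), which was lost without YHSC replicate 1, 2 or 3 or OHSC replicate 1, 2 or 5 (-0.74 to -0.63, adjusted p from 0.0529 to 0.131).

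Among T-box factors 1 of 6 was higher, Tbx1, with a log2 change of 0.62 (adjusted p = 0.00332) that fell under 1.5-fold without YHSC replicate 1 (0.58), YHSC replicate 4 (0.56) or OHSC replicate 3 (0.52). Among Fgf ligands 1 of 6 was higher, Fgf12, with a log2 change of 1.00 (adjusted p = 0.0101) that was lost without YHSC replicate 1 (0.86, adjusted p = 0.0501). Gli2, a factor of hedgehog signalling, was the 1 lower gene of 6 Gata, Zic and Gli factors, with means of 2.97 and 1.11 CPM (log2 change -1.38, adjusted p = 6.39e-05). No call was made among 5 Sox and 2 forkhead factors.

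Ighv1-26, Ly6d, Iglc3, 2010309G21Rik and Ighg3 had the largest falls with age among members with libraries apart. Ighv1-26, an immunoglobulin heavy chain variable segment (chr12:114788372-114788805), was at 1.17, 1.90, 1.70 and 40.8 CPM in YHSC and from 0 to 0.0875 CPM (median 0.0205) in OHSC, a log2 change of -8.43 (adjusted p = 0.00173) that was -5.57 (adjusted p = 1e-07) without YHSC replicate 4, and DESeq2 gave it no adjusted p. Ly6d, a surface protein gene of early B lineage cells (chr15:74762056-74763620), was at 6.15, 6.89, 16.6 and 19.9 CPM in YHSC and from 0.0437 to 0.619 CPM (median 0.134) in OHSC (log2 change -5.76, SE 0.50, adjusted p = 4.57e-06). Iglc3, an immunoglobulin light chain constant gene (chr16:19065230-19065681), was at 4.06, 5.52, 10.6 and 13.4 CPM in YHSC and from 0 to 0.496 CPM (median 0.088) in OHSC (log2 change -5.65, adjusted p = 2.18e-06). None of their old libraries reached the young range, which the rule for naming them required.

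The overlapping transcript 2010309G21Rik, from which Iglc3 reads may not be told apart, went from 2.18, 2.83, 5.52 and 7.21 CPM to at most 0.180 CPM (log2 change -5.55, adjusted p = 2.31e-10). Ighg3 was at 0.544, 1.61, 4.28 and 7.92 CPM in YHSC and at most 0.451 CPM in OHSC (log2 change -5.01, adjusted p = 0.00116), with -4.26 without YHSC replicate 4 and -5.85 without OHSC replicate 7. Of 158 immunoglobulin and T cell receptor segments in long domains, 8 could be tested, and 0 were higher and 5 lower. Blood lineage factors had 1 higher and 4 lower of 9 tested (median -0.82).

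Ikzf3, the lymphoid zinc finger gene Aiolos, was at 2.13, 3.57, 6.21 and 4.44 CPM in YHSC and from 0.203 to 1.02 CPM in OHSC (log2 change -2.71, adjusted p = 1.47e-07). Ebf1, a B cell factor gene, was at 2.34, 3.76, 5.20 and 4.93 CPM in YHSC and from 0.122 to 1.70 CPM in OHSC (log2 change -2.22, adjusted p = 0.000792). Pax5 had means of 1.69 and 0.497 CPM (log2 change -1.72, adjusted p = 0.0125), which was lost without YHSC replicate 3 (-1.56, adjusted p = 0.055). These changes moved with the summed B cell markers given above, of which all 6 fell and YHSC libraries held 82.3 CPM or more. The part of such cells in the result was not tested.

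Myeloid and erythroid members varied between single libraries. Mpo was at 0.711, 0.830, 29.1 and 0.497 CPM in YHSC and from 0.443 to 1.52 CPM in OHSC, with a log2 change of -3.25 (adjusted p = 0.0466). It rested on YHSC replicate 3, without which the change was 0.26 (adjusted p = 0.772), and it also lost the threshold when any 1 OHSC library was left out (adjusted p from 0.0589 to 0.0821) or no filter on low counts was used (adjusted p = 0.106), and DESeq2 gave it no adjusted p. S100a8, an alarmin gene of neutrophils, was at 1.30, 1.22, 57.1 and 27.5 CPM in YHSC and from 1.33 to 26.6 CPM in OHSC and was not called (adjusted p = 0.27). Hba-a1, an alpha globin gene with a near copy Hba-a2, was at 2.22, 2.05, 3.08 and 2.45 CPM in YHSC and from 4.83 to 53.4 CPM (median 14.5) in OHSC (log2 change 2.99, adjusted p = 0.0102). Hba-a2 had means of 0.565 and 6.18 CPM (log2 change 3.49, adjusted p = 0.006). The erythroid marker sum given above, which holds both globin genes, also moved with age, and the part of red cell RNA was not tested.

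Accessible chromatin lay in most long domains and changed mainly upward with age. Of 127695 consensus ATAC-seq regions, 21124 have their middle in a long domain, while 2285 long domains (27%) hold none. Regions inside had a median of 2.37 CPM against 3.03 CPM outside. Over all regions tested, 10.1% were called higher and 2.9% lower in OHSC, where a call needed an adjusted p below 0.01 and more than 1.5-fold. Inside long domains 1558 of 13864 tested were higher (11.2%) and 398 lower (2.87%), shares close to the background. The 95% exact binomial interval of the higher share was 10.7% to 11.8%. It takes regions as independent and covers counting error only, not the spread between libraries. The libraries of the 2 ages did not overlap for 1480 of the higher and 359 of the lower regions. Over all regions this held for 8484 of 8999 and 2280 of 2592. The median log2 change was 0.016 inside and -0.011 over all regions. Long domains held 10.2% to 10.5% of reads in the 4 YHSC libraries and 10.7% to 11.1% in the 4 OHSC libraries, without overlap.

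By size the share of higher regions ran from 8.89% at 20 to 30 kb and 8.09% at 30 to 50 kb to 10.1%, 12.2% and 19.0% in the size classes from 50, 100 and 200 kb upward. The share of lower regions stayed between 2.38% and 3.21%. By place, promoter regions differed most from those outside, with 68 of 1244 (5.47%) higher and 32 lower in long domains against 91 of 6274 (1.45%) higher and 121 lower outside H3K27me3 domains. For introns the higher shares were 13.5% and 9.82%, for exons 6.07% and 3.89%, and for intergenic regions 12.4% and 14.1%. These shares are descriptions, and no test was made between them.

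**Figure D5:**
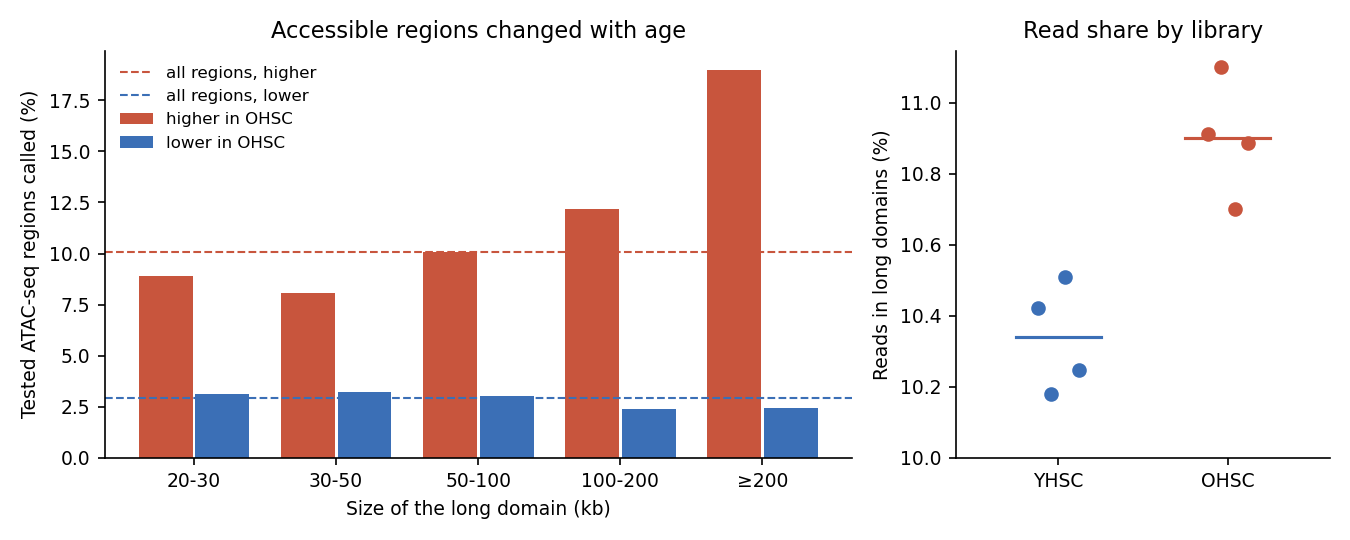
Left, share (%) of tested ATAC-seq regions called higher (red) or lower (blue) in OHSC by size of the long domain in kb, with dashed lines for all regions. Right, share (%) of ATAC-seq reads that fall in long domains, one point per library with the mean as a line and an axis that starts at 10. The higher share reaches 19.0% in domains of 200 kb or more, and all OHSC libraries (10.7% or more) lie above all YHSC libraries (10.5% or less).

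The largest single rises were in introns and between genes. A region in an intron of Tmem132b (chr5:125612447-125612891) went from 0.119, 0.130, 0.154 and 0 CPM in YHSC to 2.65, 1.66, 1.83 and 3.01 CPM in OHSC, a log2 change of 4.47. A region in an intron of Rbfox1, a neuronal splicing factor gene (chr16:6321170-6322128), went from 0.989, 1.69, 2.11 and 1.22 CPM to 23.4, 24.9, 22.4 and 21.5 CPM (log2 change 3.94, SE 0.13). Means rose from 0.263 to 4.87 CPM near Syt9 (chr7:107321979-107322598), from 0.309 to 4.78 CPM near Serpina1f (chr12:103699849-103700680) and from 0.596 to 8.90 CPM in an intron of Adam23 (chr1:63517681-63518412). The largest falls were -3.09 on the log2 scale in an intron of Alpk2 on chromosome 18 (means 2.42 and 0.280 CPM), -2.63 near Gm14616 (chr2:174868882-174869441), -2.41 in an exon of Cpeb1 (chr7:81348250-81348525), -2.38 in an intron of Tekt4 (chr17:25462551-25462873) and -2.26 at chr12:106387918-106388248. Each of these 10 regions had libraries of the 2 ages that did not overlap, which the rule for naming them required. The most accessible regions in long domains were at Garem1 (152 CPM in YHSC and 147 CPM in OHSC), A930002H24Rik and Fer (136 and 120 CPM), Epha7 (109 and 102 CPM), Dcbld2 (103 and 94.1 CPM) and Epha5 (102 and 96.5 CPM), and none of these 5 was called.

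When the reads of all regions in a domain were summed, 6125 long domains could be tested. Over all 11746 domains tested 9.63% were higher and 3.2% lower in OHSC. Among long domains 676 (11.0%) were higher and 114 (1.86%) lower, with libraries apart in 639 and 104, against 1059 of 1131 and 339 of 376 over all domains tested. Medium domains had 362 higher and 173 lower of 4284, and short ones 93 and 89 of 1337. In domains of 200 kb or more 49 of 301 were higher and 1 was lower. The 833999 bp domain around 3110018I06Rik was at 30.6, 29.5, 30.1 and 28.7 CPM in YHSC and at 55.8, 49.4, 49.5 and 46.7 CPM in OHSC (log2 change 0.74, SE 0.060, adjusted p = 1.07e-15). The Kirrel3 domain (chr9:34282000-34986999) rose from 118 ± 6.8 to 193 ± 6.31 CPM (SD, n = 4 libraries per age, log2 change 0.70, adjusted p = 5.86e-21 by edgeR). The longest domain, with Cadm1, went from 80.9 ± 2.69 to 91.2 ± 3.35 CPM (log2 change 0.16, adjusted p = 0.00564 by edgeR) and stayed under the fold threshold, and the Irs1 domain had 135 CPM at both ages.

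The Serpina1f domain (chr12:103666000-103775999) had one of the largest rises, from 0.672, 0.778, 0.461 and 0.647 CPM in YHSC to 6.34, 8.33, 4.21 and 7.31 CPM in OHSC (log2 change 3.37, SE 0.224, adjusted p = 1.85e-18). Others were 3.38 for a domain on chromosome 18, 3.24 at chr2:54218000-54245999, 3.02 at chr11:28703000-28776999 and 3.18 at chr1:35160000-35190999, where the means were 0.0982 and 1.02 CPM and leaving out YHSC replicate 1 gave 4.87. The largest falls were -2.30 on chromosome 18, -1.97 at chr2:121721000-121758999, -1.70 at chr14:59892000-59923999, -1.64 at chr8:16300000-16345999 and -1.58 at chr12:113232000-113275999. The call at chr14:59892000-59923999 was lost without YHSC replicate 2 (-1.48, adjusted p = 0.0124). Of the 5 domains with the weakest H3K27me3 signal in YHSC, called in OHSC alone, chr8:19389000-19443999 rose from 1.65 to 3.56 CPM (log2 change 1.10, adjusted p = 1.38e-05). Another, chr12:114210000-114234999, was called at 1.25, and that call was lost without YHSC replicate 1, 2 or 4 or OHSC replicate 5 (0.86 to 1.30, adjusted p from 0.0115 to 0.0644). The domain with the strongest signal, over Hoxa10, went from 21 to 18.4 CPM (log2 change -0.21, adjusted p = 0.0352) and was not called.

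Accessibility and RNA calls of the same domains were set side by side. The 676 domains with a higher sum held 153 tested genes, of which 24 were higher and 0 lower in OHSC by edgeR, with a median log2 RNA change of -0.14 over the 153. The 114 domains with a lower sum held 58 tested genes, of which 2 were higher and 8 lower (median -0.11). The 5335 domains without a call held 2416 tested genes, of which 238 were higher and 134 lower (median -0.048). The 2 assays come from different libraries, and no test of the overlap was made.

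H3K27ac, a mark of active enhancers and promoters, was measured in 2 libraries per age, and calls follow a rule of size without a test. A peak was called when the ratio of the means exceeded 1.5 and each old against each young library differed at least 1.2-fold. Over all 39557 peaks 9.11% were higher and 2.27% lower in OHSC. Of 3447 peaks in long domains 494 (14.3%) were higher and 114 (3.31%) lower, and the median ratio of old to young was 1.109 against 1.04 over all peaks. These counts leaned on the libraries and the method, with 992 higher without YHSC replicate 1, 282 lower without YHSC replicate 2 and 223 lower without OHSC replicate 1, and with 55 higher and 5 lower when limma was used at an adjusted p below 0.05.

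The largest ratio belonged to a peak 159660 bp from the start of Kcnb2, whose RNA rose with age (chr1:15127344-15127845), with signals of 0.186 and 0 in YHSC and 1.33 and 1.24 in OHSC. A peak in an intron of the calcium channel gene Trpc1 (chr9:95742715-95743363) had 0.201 and 0.218 in YHSC and 2.67 and 2.14 in OHSC, and 1 in an intron of Acsm1 (chr7:119619921-119621037) was 7.64-fold higher. Among the falls, a peak in an intron of Lin28b, which encodes an RNA-binding protein of fetal HSCs (chr10:45468849-45470217), had 2.01 and 1.45 in YHSC and 0.393 and 0.543 in OHSC, 3.69-fold lower. Peaks in an intron of Pdpn and near Aym1 were 3.16-fold and 3.03-fold lower. For the named peaks the 2 libraries of each age lay apart from those of the other, as the rule required.

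In CMP and GMP, Mpo and Gm11505 carried most of the RNA from long domains. Members took 3.74% to 4.09% of reads in CMP, 8.01% in GMP and 2.08% to 2.09% in MEP. In GMP, Mpo made up 55.9% of these reads with a mean of 44797 CPM, and Gm11505, an antisense gene inside Mpo, 19.6%, where reads of both cannot be told apart without the strand setting of the counting. In CMP, Mpo made up 38.6% with a mean of 15136 CPM. Without both genes the shares were 1.87% to 1.88% in CMP and 1.96% in GMP, near those of MEP, while YHSC stayed at 2.20% to 2.39%. Of the 8997 members under 1 CPM in every YHSC library, 16 (0.178%) reached 5 CPM in both CMP libraries, 19 (0.211%) in GMP and 17 (0.189%) in MEP. Outside H3K27me3 domains these shares were 0.163%, 0.232% and 0.185%. HSC values stand beside those of progenitors without a test, for the reason given with Hoxa10.

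The genes of this kind with the highest levels are given here. Mcpt8, with the CpG-free promoter printed above, was at 0 to 0.147 CPM in YHSC, 34.9 and 31.8 CPM in CMP, 38.2 and 58.4 CPM in GMP and 0 in MEP. Slpi, an antiprotease gene of granulocytes, was at 72.6 and 78.2 CPM in CMP, 206 and 230 CPM in GMP and 0.225 and 0.198 CPM in MEP. Both were thus high in CMP and GMP and near 0 in MEP.

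Sgms2 (89.9 and 72.1 CPM in GMP) and Chst13 (53.4 and 52.8 CPM in GMP) were highest in GMP, and Kcng1 in CMP (42.9 and 42.6 CPM). Cx3cr1, a chemokine receptor gene of monocytes, was at 25.9 and 22.5 CPM in CMP and 20.1 and 16.1 CPM in GMP. On the MEP side, Trim10, a gene of red cell maturation, was at 37.6 and 36.9 CPM in MEP, 0 in CMP and 0.169 and 0.0603 CPM in GMP. Nags was at 23.2 and 19.0 CPM in MEP against 0.0548 and 0.168 CPM in CMP. Hba-a2 reached 14.6 and 14.9 CPM in MEP.

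Between MEP and CMP, 17.5% of all genes tested were higher and 29.2% lower in MEP, with the limits used for age. Among 1495 members tested 324 (21.7%) were higher and 490 (32.8%) lower, with a median log2 change of -0.06 in members and -0.07 over all genes. Epor, the erythropoietin receptor gene (chr9:21958897-21963506), was at 17.4 and 21.4 CPM in CMP, 188 and 196 CPM in MEP, 0.310 and 0.543 CPM in GMP and 14.9 to 18.6 CPM in YHSC. It was higher in MEP than in CMP (log2 change 3.42, SE 0.10, adjusted p = 6.8e-12) and 39.1-fold lower in GMP than in CMP (adjusted p = 1.75e-09). Against CMP libraries without a read, with 3 counts over the group as the floor, Trim10 was at least 971-fold higher in MEP, Tspan15 (14.5 and 11.4 CPM) at least 337-fold, Phyhip (12.3 and 11.5 CPM) at least 311-fold and Gm29292 (5.83 and 7.75 CPM) at least 177-fold. Sh3tc2 went from 0.0548 and 0 CPM in CMP to 57.1 and 56.4 CPM in MEP.

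Lower in MEP and without a read there were Mcpt8 (at least 727-fold), Gramd3 (10.6 and 10.4 CPM in CMP, at least 229-fold), Unc5a, a netrin receptor gene (9.56 and 8.02 CPM, at least 192-fold), Lmo1 (8.38 and 7.85 CPM, at least 177-fold) and Kcnc1 (7.61 and 5.66 CPM, at least 145-fold). Unc5a was also present in YHSC, at 22.6 to 25.8 CPM. Mpo was at 16431 and 13840 CPM in CMP and 27.2 and 11.8 CPM in MEP, a log2 change of -9.48 that was -10.2 without MEP replicate 1. Ctsg, the cathepsin G gene in the same domain as Mcpt8 (chr14:56060000-56187999), was at 787 and 666 CPM in CMP and 1.13 and 0.623 CPM in MEP (log2 change -9.58, adjusted p = 6.5e-09). Gbx2 was at 11.3 and 10.8 CPM against 0.282 and 0.283 CPM (log2 change -5.16), and Fgf3 at 31.1 and 35.3 CPM against 0.225 and 0.453 CPM. Gata3 was at 2.63 and 2.80 CPM against 0.451 and 0.170 CPM (log2 change -3.0, and -3.87 without MEP replicate 1).

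Between GMP and CMP, 6.25% of all genes tested were higher and 10.5% lower in GMP, and 158 (10.6%) and 178 (11.9%) of the members. Ctsg was at 1936 and 1864 CPM in GMP, 3.04-fold above CMP (log2 change 1.60, adjusted p = 2.75e-05). Mpo was 3.44-fold higher (log2 change 1.78, adjusted p = 0.0462), a call that was lost when any 1 CMP or GMP library was left out (1.65 to 1.91, adjusted p from 0.168 to 0.216) or no filter on low counts was used (adjusted p = 0.0826). Sox6, a factor gene of erythroid cells, went from 22.8 and 22.1 CPM in CMP to 2.68 and 3.26 CPM in GMP, 6.51-fold lower (adjusted p = 4.23e-08), while MEP had 22.6 and 23.0 CPM and YHSC 54.0 to 67.4 CPM. The largest rises by fold were low genes, such as Epx, the eosinophil peroxidase gene, with 0.0274 and 0 CPM in CMP and 3.92 and 9.74 CPM in GMP, 4933440M02Rik with 0.164 and 0.0561 against 4.93 and 3.68 CPM, and Dmrtb1 with 0 against 0.282 and 0.301 CPM. The call of Dmrtb1 was lost without CMP replicate 1 (6.46 on the log2 scale, adjusted p = 0.109) or CMP replicate 2 (6.47, adjusted p = 0.113). D930028M14Rik (1.62 and 1.40 CPM in CMP) was without a read in GMP and at least 29.7-fold lower, Rasal1 at least 22.4-fold, Cdc42ep5 at least 17.5-fold and Tspan18 at least 14.7-fold.

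Between MEP and GMP, 16.6% of all genes tested were higher and 27.2% lower in MEP, and 317 (21.2%) and 454 (30.4%) of the members. The 3 progenitor comparisons share libraries and are therefore not independent. Sh3tc2 was at least 1210-fold higher in MEP than in GMP, Acsl6 (34.6 and 36.6 CPM) at least 759-fold, Cecr2 (12.8 and 18.4 CPM) at least 332-fold and Sfrp4, a gene for a secreted Wnt antagonist (15.4 and 11.7 CPM), at least 288-fold. Slc25a21 was at 130 and 153 CPM in MEP and at 0 and 0.0603 CPM in GMP. In the other direction, Chst13 was at least 1348-fold lower, Mcpt8 at least 1226-fold, Ncam1 (21.9 and 23.1 CPM in GMP) at least 571-fold, Nrg1 (27.6 and 16.9 CPM) at least 565-fold and Gm16192 (18.2 and 17.2 CPM) at least 449-fold.

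For the knockdown of the Btaf1 variant, both shRNAs were taken as 1 group of 4 libraries and set against 2 control libraries, separately in each setting. A call needed an unadjusted p below 0.05 and more than 1.5-fold. After transplantation 1.43% of all genes tested were called higher and 0.811% lower, and of 1835 members 59 (3.22%) and 38 (2.07%). At an adjusted p below 0.05 edgeR called 0 members and 0 of all 20350 genes and DESeq2 called 6 members and 60 of all genes, while 127 of 1835 members and 1138 of the 20350 genes had an unadjusted p below 0.05 by edgeR. In culture 2.45% of all genes tested were called higher and 0.972% lower, and of 1854 members 112 (6.04%) and 37 (2.00%). With an adjusted p below 0.05 and a fold above 1.5, 27 of 1854 members were called in culture, against 179 of 19763 genes in all (0.906%). The difference between the 2 settings was tested as an interaction, and 3 of 2164 members passed an adjusted p of 0.05, against 45 of 21443 genes in all (0.21%).

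In culture, Id3, Id2 and Wnt2 were higher with the shRNAs. Id3 was at 53.8 and 55.2 CPM in the controls and at 148, 161, 163 and 171 CPM in the shRNA libraries (log2 change 1.54, SE 0.062, adjusted p = 5.4e-09). Id2 was at 78.7 and 77.4 CPM against 125, 137, 141 and 147 CPM (log2 change 0.80, SE 0.064, adjusted p = 1.5e-05). The Wnt ligand gene Wnt2 was at 1.40 and 1.21 CPM against 4.05, 4.19, 3.52 and 4.59 CPM (log2 change 1.62, adjusted p = 0.000465). In all 3 every shRNA library lay above both controls. Freshly sorted OHSC had 0.446 to 1.02 CPM of Id3, and the transplanted controls 1.14 and 1.33 CPM, values set side by side without a test because the experiments were run apart.

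Tcf24, a bHLH factor gene, was without a read in both controls and at 0.589, 0.955, 0.680 and 1.03 CPM with the shRNAs, at least 21.4-fold higher (adjusted p = 0.000846). Pcdh10 was at least 6.32-fold higher, a call lost without control replicate 1. Mettl21c went from 0.0234 and 0 CPM to between 0.195 and 0.636 CPM. Among the falls, Cdh17 was no longer called without control replicate 2 (-1.89 on the log2 scale), Sorcs2 without control replicate 2 (-1.48) and Sorcs1 without control replicate 1 (-1.52). Bmp2, at 0.796 and 0.322 CPM in the controls and 0.0942 to 0.291 CPM with the shRNAs, was no longer called without control replicate 1 (-1.01).

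After transplantation the named changes were of low genes. Rnf43, a gene for an inhibitor of Wnt receptors, was at 0 in both controls and at 0.317, 0.263, 0.555 and 0.181 CPM with the shRNAs, at least 8.72-fold higher. Syt14 was at least 6.39-fold higher. The call of Mmp8 was lost without either control library and without the filter on low counts. Insm1, a neuroendocrine zinc finger gene, was at 1.95 and 9.36 CPM in the controls and at 0.0488, 0.105, 0 and 0.363 CPM with the shRNAs. Its log2 change of -5.44 (unadjusted p = 0.000191, adjusted p = 0.791) ran from -6.72 without shRNA2 replicate 2 to -3.89 without control replicate 2, with -6.17 without control replicate 1. In culture Insm1 was called in the opposite direction, with a log2 change of 3.22, and that call was lost without control replicate 2 (2.38). Opcml was at 0.332 and 0.372 CPM in the controls and at most 0.0488 CPM with the shRNAs. Col9a3 was no longer called without control replicate 1 (-2.86 on the log2 scale).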

How the data were processed

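For RNA-seq, the deposited values are raw counts per gene, which the authors made with trim galore and cutadapt, STAR on mm10 and featureCounts. Neither strandedness nor the handling of ambiguous reads is stated in the sources, and for the HSC libraries the labels and the study's methods name different kits. For ATAC-seq, the deposited values are raw counts per consensus region, for which the authors used cutadapt and BWA, removed PCR duplicates, ambiguous alignments and blacklisted places, and merged MACS2 peaks. No source mentions a shift of reads for Tn5. For H3K27me3, H3K4me3 and H3K27ac, the deposited columns hold a signal per peak that the authors scaled to a fixed number of reads, with no statement on how a peak's bins were combined. H3K27me3 domains were built by the authors from chromatin states of all histone marks in 1000 bp bins, with young and old HSCs, and ChIP used carrier bacteria for low cell numbers. The H3K36me3 table gives coordinates only. Columns of the authors' fold changes and their log2 were not used, and neither were 8 columns of per-sample values that could not be tied to a listed sample.

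Repeated listings of a domain were counted once (58101 listings, 55820 domains). The listed size is end minus start. If both ends are counted, the 406 domains of 19999 bp reach 20000 bp and 8859 domains are long. A gene belongs to the domain that holds its GENCODE start, and a region or peak to the domain that holds its middle. Of 55376 genes, 974 could not be placed once by name, and 92 spike-in RNAs were left out of library sizes. An H3K4me3 peak within 1000 bp counted as at the start, and ATAC-seq promoters ran from 1000 bp before to 100 bp after it.

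Counts were compared with edgeR 4.0.16 in R 4.3.3 (TMM, filterByExpr for genes and for domain sums, more than 1.5 CPM in at least 4 libraries for ATAC-seq regions, robust quasi-likelihood test, Benjamini-Hochberg adjustment over all features tested). All p-values of genes, regions and domain sums are two-sided values of that test unless DESeq2 1.42.0 or limma 3.58.1 is named, limma on log2 of the H3K27ac signal with a pseudocount of 0.1. Sequences and promoter windows came from RefSeq (GRCm38.p6), and intervals were joined with bedtools 2.31.1 and pandas 2.3.3. CPM values use the total counts, fitted folds the library sizes scaled by TMM. Folds against a group without a read use 3 counts over the group on the TMM scale, and these bounds and the binomial intervals cover counting error only, since reads carry no molecular identifiers. Replicate numbers are not stated to mark pairs, and same-numbered libraries did not deviate together throughout (correlations from -0.213 to 0.168), so no block was used. No 2 libraries were identical. Members, gene lists and the rule for named items were chosen with earlier results of these data known. The rule named the longest, strongest, weakest and most gene-rich domains, all Hox genes, the highest genes, and for each comparison the largest called changes whose libraries did not overlap, with up to 2 called changes each way for each list. Some items that the rule names are not reported here.

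Alternatives were DESeq2 or its size factors, no filter on low counts, other fold and CPM limits, domain limits of 15000 and 30000 bp, genes wholly inside, coding genes alone, a replicate block, leaving out each library and, chosen after seeing the data, RefSeq starts.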

Additional observations from a re-analysis of the deposited data

Results flagged for a closer look

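Groups of 4 to 8 libraries were checked for the named genes and regions and for the shares of reads in long domains. In 292 groups, 31 libraries stood apart from the others of their group by Dixon's criterion. For independent, normally distributed values chance gives this in about 1 of 20 groups. Several flagged groups lie near 0 CPM, such as Hoxa13, where that rate does not hold, so the 31 cannot be set against it. The values below are in CPM, followed where useful by the nearest other library.

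Among YHSC RNA libraries, replicate 3 stood apart for Mpo (29.1 against 0.830), Ctsg (2.35 against 0.195), Hoxa10 (51.0 against 46.8) and Hoxa13 (0.0460 against 0). Replicate 4 stood apart for Ighv1-26 (40.8 against 1.90), Slpi (0.788), Pdzph1 (0.746), Ntf3 (0.249) and Sox30 (1.62 against 1.52). Replicate 2 stood apart for Dmrtb1 (0.537), Hoxd8 (0.293), Hoxd3 (0.195) and Hoxd10 (0.0977), and replicate 1 for Gnas (722 against 682) and, on the low side, Tspan18 (0.544 against 1.06) and Wnt6 (0.293 against 0.456).

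Among OHSC RNA libraries, replicate 8 stood apart for Hba-a1 (53.4 against 22.9), Gm11560 (0.787) and Hoxd10 (0.131), and replicate 2 for S100a8 (26.6 against 4.18) and Mmp8 (5.00 against 1.30). Replicate 4 stood apart for Cecr2 (5.05 against 3.02), Wnt2 (0.670) and Sim2 (0.626), replicate 3 for Gnas (633 against 605) and Tbx1 (8.46 against 5.90), replicate 7 for Hoxc10 (1.98 against 0.487) and replicate 1 for Ctsg (0.265).

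For ATAC-seq, YHSC replicate 2 (3.05 against 2.28) and OHSC replicate 7 (0.199 against 0.30) stood apart at the Alpk2 intron region, and YHSC replicate 1 (111 against 109) at the Epha7 region, where the gap is small beside the level.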

How the results depend on the processing

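Over 21 results on the members as a whole, 182 of 223 alternatives kept the direction and stayed close to the reported count. Genes counted by their whole body inside the domain left 114 higher and 51 lower genes with age, 155 and 155 for MEP against CMP, 71 and 47 for GMP against CMP, and 123 and 164 for MEP against GMP. With every RefSeq start inside, an alternative chosen after seeing the data, 162 genes were higher and 83 lower with age. Without a filter on low counts the knockdown gave 102 higher and 101 lower after transplantation and 176 and 80 in culture, against 0 and 0, and 20 and 7, at an adjusted p below 0.05, and ATAC-seq gave 672 lower regions. A fold change above 2 left 894 higher and 105 lower regions, and no cut on the fold gave 1181 higher and 482 lower domain sums. For H3K27ac, higher peaks numbered 292 at a mean signal of at least 1, 55 by limma and 311 by limma with the replicate number as a block, and lower peaks numbered 178 after scaling to the same median, 5 by limma and 55 with that block. The share of silent genes was 70.1% below 0.5 CPM, 89.8% below 2 CPM, 83.2% in domains of 30000 bp or more, 92% for whole gene bodies, 63.3% for coding genes and 73.5% with RefSeq starts. The median signal was 0.479 from 15000 bp and 0.555 from 30000 bp. The cause of these shifts was not tested, apart from fewer genes being counted where a rule is stricter.

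Leaving out 1 library at a time gave 234 to 267 higher and 135 to 181 lower genes with age, 279 to 297 and 451 to 477 for MEP against CMP, 115 to 124 and 135 to 151 for GMP against CMP, 284 to 304 and 427 to 440 for MEP against GMP, 46 to 78 and 26 to 49 for the knockdown after transplantation, and 94 to 110 and 32 to 53 in culture. It gave 1096 to 1496 higher and 285 to 410 lower ATAC-seq regions, 590 to 726 and 89 to 129 domain sums, 506 to 992 and 130 to 282 H3K27ac peaks, 82.2% to 85.7% silent genes and a median signal of 0.504 to 0.513. A progenitor or control group left with 1 library was assumed to vary like the other groups.

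Of 269 single changes under 2567 alternatives, 2405 kept their call, 161 lost it and 1 reversed, Mpo with age without YHSC replicate 3 (0.263), in a range from -3.64 to 0.263 over single libraries left out. Replicate numbers are not stated to mark pairs, and with them as a block 11 of 243 single calls were lost, while no count of RNA calls moved by more than 1.5 times. No paired analysis was possible for ATAC-seq because the 2 ages share no replicate numbers. Depth limits the RNA results to the 2786 of 10957 members that passed the filter on low counts, and without the filter 274 were higher and 185 lower with age.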
